A study of Mus musculus with 4 samples.

Results

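The tricarboxylic acid (TCA) cycle enzymes and itaconate synthase were examined in RNA sequencing of mouse peritoneal macrophages. The 9 genes were taken by symbol, and each had 1 row among the 13834 rows of the gene table. They were the TCA enzyme genes Cs, Idh1, Idh2, Idh3a, Ogdh, Suclg1, Fh1 and Mdh2, and Acod1, which encodes itaconate synthase. All 9 genes passed the filter on low counts, which 12542 rows passed. The samples were 2 from Dnmt1fl/fl mice, whose genotype the labels give as wild type, and 2 from Dnmt1KO mice, in which Cre recombinase under the LysM promoter acts on floxed Dnmt1 in myeloid cells. In both groups the mice were 10 weeks old and had received thioglycolate broth into the abdomen 3 days before the cells were washed out. The cells were put into culture medium, and their treatment label says only that they were isolated. Whether the controls carried Cre, the sex of the mice, and whether a sample came from a single mouse are not given in the sources used here. Without that information, p-values measure the spread between these samples, which may be technical.

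The TCA cycle oxidises acetyl groups in mitochondria. Citrate synthase (Cs) starts it, isocitrate dehydrogenases make alpha-ketoglutarate, and oxoglutarate dehydrogenase (Ogdh) uses it up. Alpha-ketoglutarate is also a cosubstrate of the TET enzymes, which oxidise the 5-methylcytosine that Dnmt1 maintains, and succinate and fumarate, made further along the cycle, can inhibit such enzymes. Acod1 draws cis-aconitate out of the cycle to make itaconate, an inhibitor of succinate dehydrogenase, and is known as a gene that inflammatory signals strongly induce in macrophages and neutrophils.

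Because Dnmt1 methylates cytosines in CG dinucleotides, the CG content before the transcript starts was read from the RefSeq promoter table of GRCm38.p6, which holds 8 of the 9 genes. The exception is Idh3a. The RNA data do not measure methylation, and the sequences are shown to describe the genes. The 250 bases before the first transcribed base of 3 genes are given 5′ to 3′ on the gene's strand, with every CG in capitals. They are Acod1, with the fewest CG of the 8 genes, and the enzymes Cs and Fh1. Cs and Fh1 each have a single listed start and a window wholly outside the GENCODE M21 gene. The windows are chr14:103046762-103047011 on the plus strand, chr10:128337477-128337726 on the plus strand and chr1:175625636-175625885 on the minus strand. GENCODE M21 places the start of Acod1 slightly further upstream, inside its window.
Acod1: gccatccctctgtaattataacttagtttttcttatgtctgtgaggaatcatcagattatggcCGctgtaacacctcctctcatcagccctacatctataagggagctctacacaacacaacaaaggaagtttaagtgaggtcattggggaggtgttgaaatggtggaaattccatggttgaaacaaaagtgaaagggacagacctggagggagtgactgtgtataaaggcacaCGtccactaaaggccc
Cs: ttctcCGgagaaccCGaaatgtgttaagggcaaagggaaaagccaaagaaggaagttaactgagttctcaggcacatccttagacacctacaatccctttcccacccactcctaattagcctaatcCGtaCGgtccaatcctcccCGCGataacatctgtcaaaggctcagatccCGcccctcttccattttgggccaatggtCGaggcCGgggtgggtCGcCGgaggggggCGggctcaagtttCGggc
Fh1: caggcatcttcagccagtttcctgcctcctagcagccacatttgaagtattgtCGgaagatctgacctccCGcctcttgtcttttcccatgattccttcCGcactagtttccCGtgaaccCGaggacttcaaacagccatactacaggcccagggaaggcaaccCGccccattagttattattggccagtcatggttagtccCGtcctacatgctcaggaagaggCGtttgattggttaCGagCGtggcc

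The Acod1 window held 2 CG dinucleotides, the Fh1 window 10 and the Cs window 13. Across the 13 starts listed for 7 TCA enzymes, of which Ogdh has 6 and Idh1 has 2, the number ran from 9 to 35, against a median of 6 over all 32851 promoters in the table. At most 2 CG were held by 29.0% of all promoters, at least 10 by 37.8% and at least 13 by 31.5%. The TATA box letters TATAAA, searched on both strands, occurred once in the Acod1 window, 28 bases before the RefSeq start and inside the GENCODE M21 transcript, and in no window of the 7 enzymes. TATAAA was held by 12.4% of all promoters. The letters CCAAT, on either strand, were found for Acod1 and in at least 1 window of 5 of the 7 enzymes. They were held by 33.8% of all promoters, a share of single windows that cannot be set against a count of genes.

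**Figure D1:**
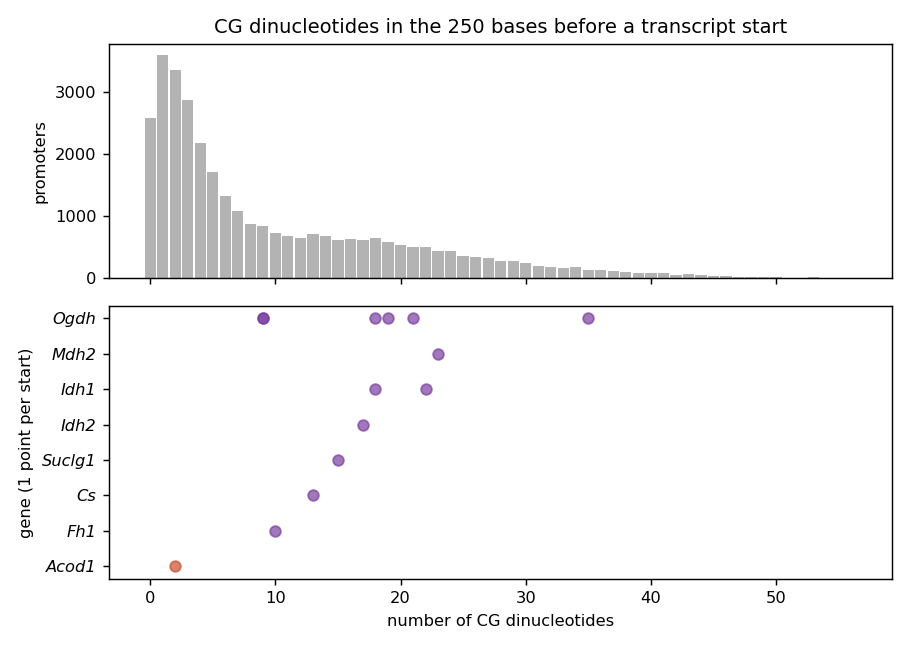
Top, number of promoters (vertical axis) with each number of CG dinucleotides in the 250 bases before the start, over 32851 promoters. Bottom, the same number for each listed start of 8 genes; Acod1 (orange) is at 2 and the TCA enzymes (purple) are at 9 to 35.

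On GRCm38 (mm10), GENCODE M21 places Cs at chr10:128337734-128362479, Idh1 at chr1:65158616-65186500, Idh2 at chr7:80094846-80115392, Idh3a at chr9:54586334-54604661 and Ogdh at chr11:6291633-6356642. Suclg1 lies at chr6:73248382-73276911, Fh1 at chr1:175600374-175625635, Mdh2 at chr5:135778480-135790398 and Acod1 at chr14:103046977-103056573. Idh1, Idh2 and Fh1 are on the minus strand and the others on the plus strand. All 9 are protein-coding, and none shares an exon base with another annotated gene.

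Totals ran from 20228071 to 24198943 counts per sample. Dnmt1, the targeted gene, was at 86.6 and 67.0 CPM (counts per library total scaled by TMM, a correction for RNA composition) in Dnmt1fl/fl replicates 1 and 2 and at 37.0 and 42.7 in Dnmt1KO replicates 1 and 2, lower in both Dnmt1KO samples and above 0 in both. Macrophage genes such as Csf1r were abundant in all 4 samples, at 1011 to 1126 CPM. The 8 macrophage markers summed to 35500 and 34600 CPM in Dnmt1fl/fl and 17900 and 21500 in Dnmt1KO macrophages. Most of it came from Lyz2, the gene whose promoter drives Cre, at 29500 and 28600 CPM in Dnmt1fl/fl and at 11400 and 15700 in Dnmt1KO macrophages. Log2 fold changes of the other macrophage markers ran from -0.12 (Cd14) to 0.32 (Fcgr1), with Csf1r at -0.06. Dnmt1KO replicate 1 stood apart in genes of other cells. The 8 neutrophil markers with a row, of 10 listed, summed to 763 CPM in it and to 194 to 262 in the other samples. Csf3r alone was at 137 to 169 CPM in the 4 samples. The 6 B cell markers summed to 130 CPM in it against 318 to 525, and the 7 markers of resident large peritoneal macrophages to 138 against 343 to 434. Of the other lists, the 5 monocyte markers summed to 843 to 1310 CPM, and T cell, mast cell, eosinophil, mesothelial and dendritic cell markers to 113 CPM or less each. In such bulk samples fewer cells of a type and less RNA per cell cannot be told apart.

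To ask how strongly each gene was expressed, CPM was divided by the length of the longest GENCODE M21 transcript, which gives CPM per kb. Idh1, the cytosolic NADP-dependent isocitrate dehydrogenase, had the highest level, 131 ± 9.83 CPM per kb (SD, n = 4, both genotypes). It was followed by the mitochondrial malate dehydrogenase Mdh2 at 74.0 ± 26.5, Cs at 48.5 ± 8.88, Ogdh at 38.1 ± 6.83 and Idh2, the mitochondrial NADP-dependent isocitrate dehydrogenase, at 37.0 ± 7.26 (SD, n = 4 each). Fumarate hydratase Fh1 was at 15.5 ± 1.33 and Suclg1, the subunit that both forms of succinyl-CoA synthetase share, at 15.0 ± 0.912 CPM per kb (SD, n = 4 each). Idh3a, the catalytic subunit of the NAD-dependent isocitrate dehydrogenase, was the lowest TCA enzyme of the 8 at 10.3 ± 1.13, and Acod1 was below it at 5.70 ± 4.76 (SD, n = 4 each). Sample ranges did not overlap between Idh1 and Mdh2, between Idh2 and Fh1, or between Suclg1 and Idh3a. The other neighbours overlapped. Even so, each gene was above the next in all 4 samples, except Fh1 and Suclg1, where the order held in 2 of 4. With the length of all annotated exons together in place of the longest transcript, Ogdh and Idh2 came before Cs, and Acod1, at 5.70, came before Idh3a at 5.25 CPM per kb.

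**Figure D2:**
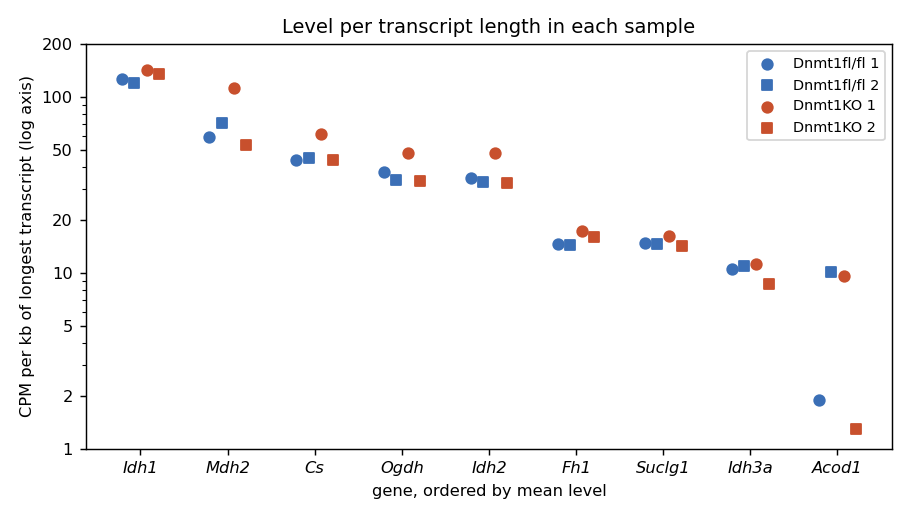
Level in CPM per kb of longest transcript (log axis) of the 9 genes in each of the 4 samples (blue, Dnmt1fl/fl; orange, Dnmt1KO; circles, replicate 1; squares, replicate 2). Idh1 is highest in every sample, and Acod1 splits into samples at 9.57 and 10.1 and samples at 1.29 and 1.89.

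Ratios to partner genes were taken per kb of longest transcript. The catalytic subunit Idh3a was at 0.194 to 0.314 of the regulatory subunit Idh3b per kb, and at 0.243 to 0.346 of Idh3g. Ogdh and Dlst, the next subunit of the same complex, had a ratio of 0.830 to 1.08 per kb, but with all exons together Ogdh was at 28.8 and Dlst at 13.0 CPM per kb. Suclg1 was 1.91 to 2.72 times its GTP-forming partner Suclg2 and 0.564 to 0.691 times its ATP-forming partner Sucla2, per kb. Mdh2 was 1.03 to 1.51 times the cytosolic Mdh1 per kb, highest in Dnmt1KO replicate 1, but with all exons together Mdh2 was the lower, at 33.4 against 48.5 CPM per kb. Idh1 exceeded Idh2 by 2.97 to 4.17 times per kb, and both ends of that range were Dnmt1KO samples.

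The comparison of the genotypes asked whether loss of Dnmt1 changed these transcripts. No member passed the test. The fitted difference was largest in Mdh2, where 1 Dnmt1KO sample was high and the other below both controls. Acod1 differed more with limma-voom (-0.43), total counts (-0.30), the replicate block (-0.30) or the crossed pairing (-0.29). Ogdh and Cs did with the length correction (0.28 each). Acod1 also differed more without Dnmt1fl/fl replicate 1 (-0.89), without Dnmt1fl/fl replicate 2 (1.53) or without Dnmt1KO replicate 1 (-2.22). So did Cs (0.24), Idh2 (0.28) and Ogdh (0.27) without Dnmt1fl/fl replicate 1, and Idh3a (-0.30) without Dnmt1KO replicate 1. In edgeR's quasi-likelihood test, 0 of the 9 members had an adjusted p under 0.05, as had 0 of 12542 genes (0%). Before adjustment, p was under 0.05 for 0 members and for 35 genes (0.279%). That number of genes was 82 without Dnmt1fl/fl replicate 2, 336 without Dnmt1KO replicate 1 and 3418 without Dnmt1KO replicate 2. DESeq2 called 1 gene and limma-voom 0 genes at the adjusted threshold, and neither called a member. The study's limit of 0.2 on the log2 scale was reached by 3 members, Mdh2, Cs and Idh2, all higher in Dnmt1KO, and by 0 lower. With total counts it was reached by 1 member higher (Mdh2, 0.24) and 1 lower (Acod1, -0.30), and with limma-voom or the replicate block by 3 higher and 1 lower. Over all genes tested, 21.8% reached it higher and 19.7% lower, so that 47.6% of those genes were lower, a share that was 66.4% when samples were scaled by total counts. The median log2 fold change was 0.19 over the 9 members and 0.0046 over all genes tested, and with total counts 0.0992 and -0.0624. Without Dnmt1KO replicate 1 the members' median was -0.07, and without Dnmt1KO replicate 2 it was 0.43.

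Mdh2 was at 94.8 and 114 CPM in Dnmt1fl/fl replicates 1 and 2, and at 180 and 86.0 in Dnmt1KO replicates 1 and 2. Dnmt1KO replicate 1 was high and Dnmt1KO replicate 2 was below both controls. Its log2 fold change was 0.35 (standard error 0.39, 95% interval -0.61 to 1.31, adjusted p = 1.00 in edgeR), smaller than the pooled replicate SD of 0.55. Without Dnmt1KO replicate 1 it was -0.29.

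Cs was at 132 and 134 CPM in Dnmt1fl/fl and at 186 and 131 in Dnmt1KO macrophages. The other samples were nearly equal and Dnmt1KO replicate 1 was above them. The log2 fold change was 0.25 (standard error 0.26, adjusted p = 1.00 in edgeR), and -0.02 without that sample.

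The same sample was highest in Idh2 and Ogdh. Idh2 was at 62.2 and 59.0 CPM in Dnmt1fl/fl and at 85.5 and 58.0 in Dnmt1KO macrophages. Ogdh was at 155 and 139 CPM in Dnmt1fl/fl and at 198 and 137 in Dnmt1KO macrophages. In both genes Dnmt1KO replicate 2 was below both controls, so the genotypes overlapped. The log2 fold changes were 0.24 and 0.19 (standard errors 0.26 and 0.27, each adjusted p = 1.00 in edgeR), and -0.07 and -0.10 without Dnmt1KO replicate 1.

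Idh1 and Fh1 were the members whose genotypes did not overlap. Idh1 was at 292 and 275 CPM in Dnmt1fl/fl and at 327 and 312 in Dnmt1KO macrophages. Fh1 was at 38.1 and 38.1 CPM in Dnmt1fl/fl and at 45.4 and 41.9 in Dnmt1KO macrophages. Both differences were small. The log2 fold change was 0.17 for Idh1 (standard error 0.22, 95% interval -0.37 to 0.71) and 0.20 for Fh1 (standard error 0.20, 95% interval -0.30 to 0.69), each with an adjusted p of 1.00 in edgeR. Each exceeded the gene's own pooled replicate SD of 0.05 or 0.06. Pooled SDs at least as large as that of Idh1 were found in 96.1% of genes tested, and at least as large as that of Fh1 in 95.6%. Without Dnmt1KO replicate 1 the log2 fold changes were 0.13 and 0.13. Scaled by total counts, Idh1 and Fh1 still did not overlap, and neither did Idh3a and Suclg1, both then lower in Dnmt1KO. Both Dnmt1KO samples above both controls, as in these 2 of 9 members, was seen in 8.14% of all genes tested, and both below, as in 0 members, in 8.56%.

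Suclg1 was at 40.9 and 40.5 CPM in Dnmt1fl/fl and at 45.2 and 39.5 in Dnmt1KO macrophages, with a log2 fold change of 0.06 (95% interval -0.45 to 0.56) that was -0.0189 with total counts. Idh3a was at 27.0 and 28.3 CPM in Dnmt1fl/fl and at 28.9 and 22.5 in Dnmt1KO macrophages, with a log2 fold change of -0.11 (95% interval -0.68 to 0.46). Both overlapped between genotypes at TMM scaling.

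**Figure D3:**
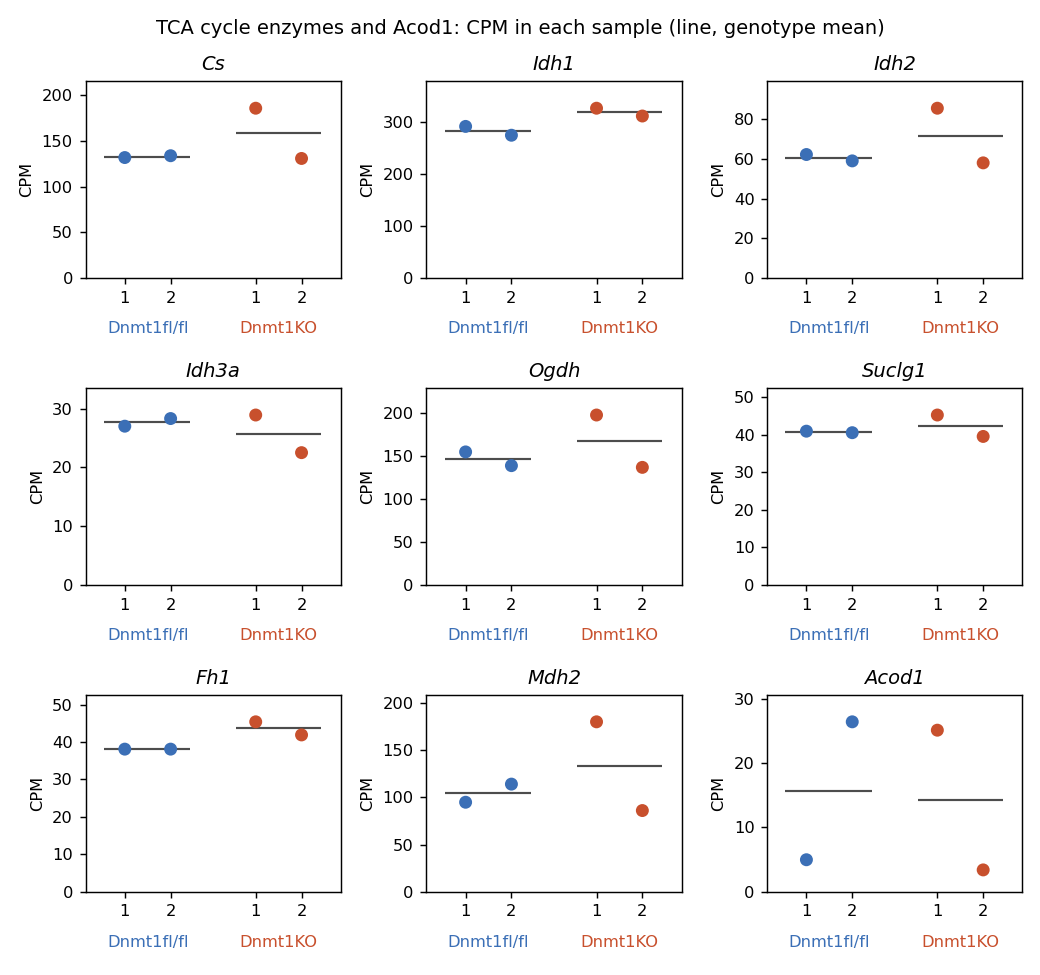
CPM (vertical axis, from 0) of the 9 genes in each sample, with replicates 1 and 2 of Dnmt1fl/fl (blue) and Dnmt1KO (orange) and a line at each genotype's mean. Dnmt1KO replicate 1 is the highest point in the 8 TCA enzymes, and in Acod1 Dnmt1fl/fl replicate 2 and Dnmt1KO replicate 1 are high.

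The replicates of the genotypes were unequally close. Dnmt1KO replicate 1 was the highest of the 4 samples in 8 of the 9 members, where 38.8% of all genes tested had their highest value in it. This count was made after the values were seen. Scaled by total counts, it was highest in 4 members, Mdh2, Cs, Idh2 and Ogdh, and in 26.7% of all genes. Among the 8 TCA enzymes it exceeded Dnmt1KO replicate 2 by 0.07 (Idh1) to 1.07 (Mdh2) on the log2 scale, a median of 0.43. The median over all genes was -0.01, and their absolute median was 0.48, so that at TMM scaling the gap was on one side in these enzymes but not larger than in other genes. Scaled by total counts, Idh1, Fh1 and Suclg1 were lower in Dnmt1KO replicate 1 than in replicate 2. The Dnmt1fl/fl samples differed in these enzymes by an absolute median of 0.07, against 0.21 over all genes. The excess of neutrophil markers and the low B cell and resident macrophage markers of Dnmt1KO replicate 1 stood beside these values, and their part in the result was not tested. With a correction for transcript length, added after the data were seen, the log2 fold change was 0.24 for Mdh2, 0.28 for Cs, 0.18 for Idh2 and 0.28 for Ogdh.

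The other 13 genes of the cycle were mostly highest in the same sample. They are the aconitases, the remaining subunits of the dehydrogenase and synthetase complexes, the 4 subunits of succinate dehydrogenase and Mdh1. Of these, 0 had an unadjusted p under 0.05 in edgeR, 3 reached a log2 fold change of 0.2 higher and 0 lower (21.8% and 19.7% of all genes tested), and Dnmt1KO replicate 1 was highest in 10 of 13 (38.8% of all genes). The 3 were Sdhd at 0.26 and Sdhc at 0.26, the membrane subunits of succinate dehydrogenase, and Mdh1 at 0.21. Sdhd was at 91.1 and 99.0 CPM in Dnmt1fl/fl and at 135 and 92.6 in Dnmt1KO macrophages. Idh3g, at 0.14, was the only one of the 13 whose genotypes did not overlap (8.14% of all genes higher and 8.56% lower), and Idh3b was at -0.02. Over all 21 TCA enzymes the summed level was 2120 and 2150 CPM in Dnmt1fl/fl and 2720 and 2070 in Dnmt1KO macrophages, and 19 of 21 log2 fold changes were above 0. Without Dnmt1KO replicate 1, 5 of 21 were above 0.

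**Figure D4:**
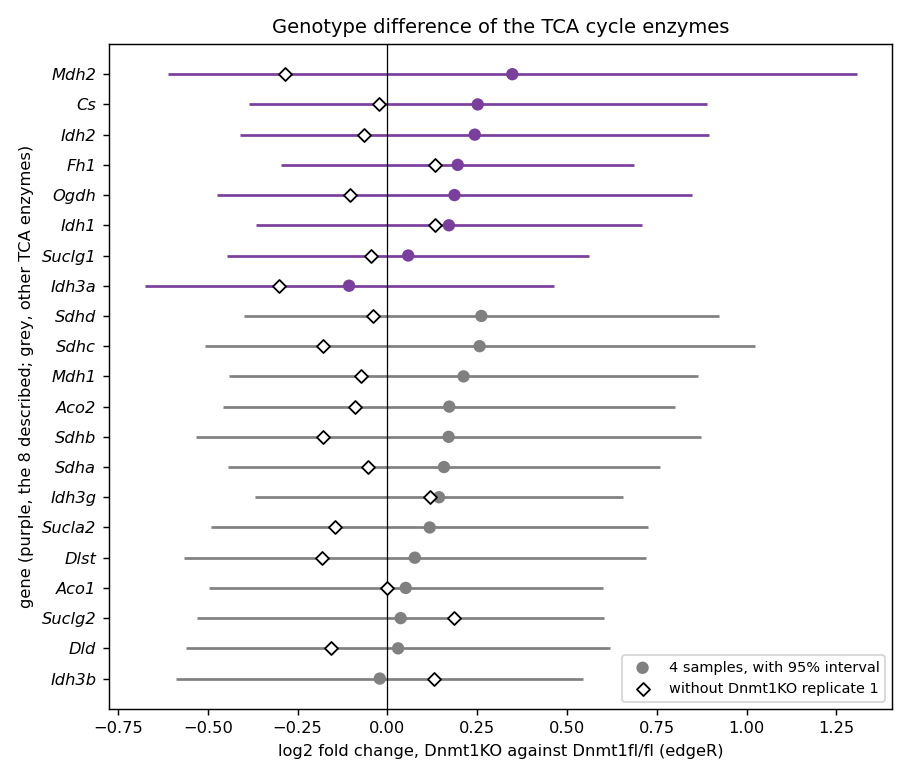
Log2 fold change of 21 TCA enzymes, Dnmt1KO against Dnmt1fl/fl (horizontal axis), from edgeR with 95% intervals (filled points, purple for the 8 described gene by gene and grey for the others) and without Dnmt1KO replicate 1 (open diamonds). All intervals include 0, and without that sample 16 of the 21 estimates are below 0.

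Acod1 varied more between samples of a genotype than any TCA enzyme. It was at 4.97 and 26.4 CPM in Dnmt1fl/fl replicates 1 and 2 and at 25.1 and 3.39 in Dnmt1KO replicates 1 and 2. Each genotype thus held a high and a low sample, and the genotypes overlapped throughout. The replicates differed by 5.31-fold in Dnmt1fl/fl and by 7.40-fold in Dnmt1KO macrophages, from 102 and 662 counts and from 497 and 80 counts. The log2 fold change between genotypes was -0.15 (standard error 1.07, 95% interval -2.80 to 2.51, adjusted p = 1.00 in edgeR). It was 1.53 without Dnmt1fl/fl replicate 2 and -2.22 without Dnmt1KO replicate 1. A pooled replicate SD as large as that of Acod1, 1.87 on the log2 scale, was found in 0.399% of genes tested.

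The profile of Acod1 was compared with other genes by the distance between log2 CPM values, each centred on the gene's mean over the 4 samples. Among genes with a mean of at least 100 counts, the nearest were Fpr1, a formyl peptide receptor of phagocytes, at a distance of 0.41, Arg2, the mitochondrial arginase, at 0.577, and Il1b, the inflammatory cytokine interleukin-1 beta, at 0.593. Il1b was at 8.18 and 34.7 CPM in Dnmt1fl/fl and at 33.5 and 7.46 in Dnmt1KO macrophages, high in the same samples as Acod1. The ratio of Acod1 to Il1b per kb was 0.313, 0.395, 0.387 and 0.235 in Dnmt1fl/fl 1 and 2 and Dnmt1KO 1 and 2. With 4 samples, such distances describe these libraries only. The TCA enzymes had nearer neighbours, but the distances were not scaled by spread, which was smaller in these enzymes. They therefore cannot show which profiles are more alike. The nearest gene to Cs, Aimp1, lay at 0.00319, that to Mdh2, Gmds, at 0.0104, and that to Fh1, Ptpn18, at 0.00911.

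Neutrophil markers were also higher in Dnmt1fl/fl replicate 2 and Dnmt1KO replicate 1 in 3 of 7 tested, S100a8, S100a9 and Cxcr2, against 28.7% of all genes tested. S100a9, an abundant granulocyte protein, was at 5.55 and 60.5 CPM in Dnmt1fl/fl and at 320 and 8.35 in Dnmt1KO macrophages. S100a8, its partner protein, was at 6.92 and 35.7 CPM in Dnmt1fl/fl and at 164 and 8.77 in Dnmt1KO macrophages. Cxcr2, a chemokine receptor of neutrophils, was at 2.63 and 12.6 CPM in Dnmt1fl/fl and at 35.8 and 3.05 in Dnmt1KO macrophages. All 3 were highest in Dnmt1KO replicate 1. The other 4 tested, Csf3r, Ltf, Mmp8 and Retnlg, were also highest in Dnmt1KO replicate 1 but lower in Dnmt1fl/fl replicate 2 than in replicate 1, with Mmp8 at 8.69 against 12.9 CPM and Ltf at 0.478 against 0.487. The ratio of Acod1 to S100a8 per kb was 0.136 and 0.141 in Dnmt1fl/fl and 0.029 and 0.0733 in Dnmt1KO macrophages, and the ratio to S100a9 was 0.177 and 0.0863 in Dnmt1fl/fl and 0.0155 and 0.0801 in Dnmt1KO macrophages. Ly6g, a defining neutrophil marker, was at 0.0487 and 0.319 CPM in Dnmt1fl/fl replicates 1 and 2, from 1 and 8 counts. In Dnmt1KO replicates 1 and 2 it was at 3.99 and 0.0424 CPM, from 79 and 1 counts. The part of neutrophils in the level of Acod1 was not tested.

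**Figure D5:**
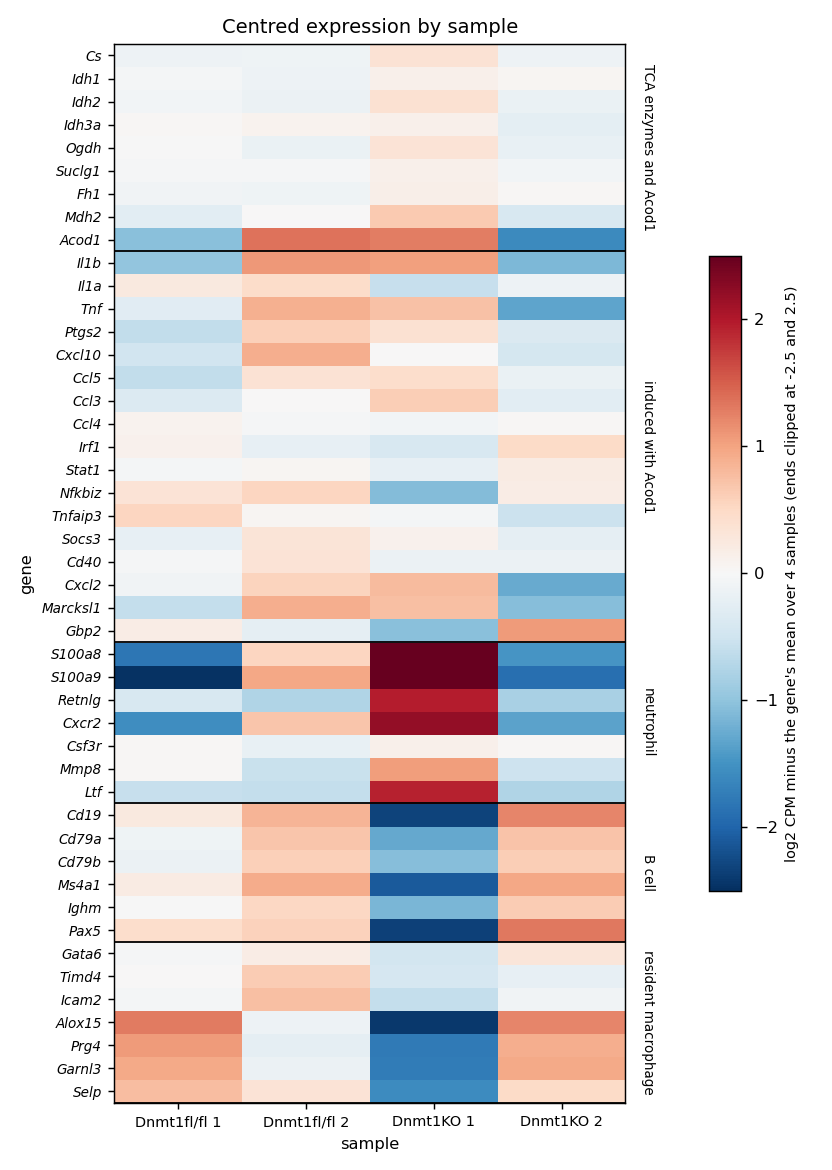
Centred log2 CPM (colour; a gene's value minus its mean over the 4 samples, clipped at -2.5 and 2.5) of the 9 members, genes induced together with Acod1, and markers of neutrophils, B cells and resident macrophages in each sample. Acod1 and Il1b are high in Dnmt1fl/fl replicate 2 and Dnmt1KO replicate 1, and so are the neutrophil markers S100a8, S100a9 and Cxcr2. All neutrophil markers shown are highest, and all B cell markers lowest, in Dnmt1KO replicate 1.

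Of 20 genes listed because inflammatory stimuli induce them together with Acod1, 17 were tested. In 9 of these, Il1b, Tnf and Cxcl2 among them, Dnmt1fl/fl replicate 2 and Dnmt1KO replicate 1 were above the other samples, which was the case in 28.7% of all genes tested and in 4 of the 9 members, Acod1, Cs, Idh3a and Mdh2. Between genotypes, 3 of the 17 reached a log2 fold change of 0.2 higher and 7 lower (21.8% and 19.7% of all genes tested), and 0 had an unadjusted p under 0.05. Nfkbiz, an inducible regulator of NF-kB, was at 38.9 and 44.7 CPM in Dnmt1fl/fl and at 14.4 and 34.9 in Dnmt1KO macrophages (log2 fold change -0.76). Il1a, the cytokine interleukin-1 alpha, was at 16.8 and 19.5 CPM in Dnmt1fl/fl and at 9.54 and 13.0 in Dnmt1KO macrophages (log2 fold change -0.69). Tnfaip3, the feedback inhibitor A20, had a log2 fold change of -0.58. Of the 4 genes of the list whose genotypes did not overlap, all lower in Dnmt1KO (8.56% of all genes), these had the largest differences, and none passed the adjusted threshold in edgeR.

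The genes that feed and drain the cycle were counted in the same way. None of them had an unadjusted p under 0.05 in edgeR, and their counts stand beside 21.8% of all genes tested at 0.2 or more higher and 19.7% lower. Counts of genes whose genotypes did not overlap stand beside 8.14% of all genes higher and 8.56% lower. In the list of pyruvate entry, 6 of 16 genes reached 0.2 higher and 2 lower. Without overlap, 4 of the 16 were higher and 0 lower. The largest of these differences was that of Me1, the cytosolic malic enzyme, at 0.39 on the log2 scale and at most 0.763 CPM. Mpc1, of the mitochondrial pyruvate carrier, followed at 0.27, and Pdp1, a phosphatase that activates pyruvate dehydrogenase, at 0.15. For glutamine and alpha-ketoglutarate supply, 2 of 14 reached 0.2 higher and 2 lower, with a median of -0.01. Of the 14, 1 was higher without overlap and 2 were lower. Slc1a5, a glutamine importer, had a log2 fold change of -0.32, D2hgdh, which oxidises D-2-hydroxyglutarate to alpha-ketoglutarate, of -0.21, and Got2, the mitochondrial aspartate aminotransferase, of 0.16. Slc1a5 was at 55.7 and 58.5 CPM in Dnmt1fl/fl and at 41.2 and 50.1 in Dnmt1KO macrophages. Of 7 tested carriers of mitochondrial metabolites and Acly, the cytosolic ATP-citrate lyase listed with them, 4 carriers reached 0.2 higher, and 2 carriers and Acly (-0.25) reached 0.2 lower. Of these 8 genes, 1 was higher without overlap and 2 were lower. They were the citrate carrier Slc25a1 at 0.38 and the glutamate carriers Slc25a22 at -0.24 and Slc25a13 at -0.20.

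In the list of itaconate handling, 4 of 7 genes reached 0.2 higher and 0 lower, against 21.8% and 19.7% of all genes. The largest differences, in Slc13a3 (0.47 on the log2 scale) and Clybl (0.35), overlapped between genotypes. Without overlap, 2 of 7 were higher and 0 lower, against 8.14% and 8.56% of all genes. They were Abcg2, an export transporter, at 0.29 and Mcee, of propionate breakdown, at 0.26. Of the Nrf2 and Atf3 list, to which itaconate has been linked, 5 of 10 reached 0.2 higher and 1 lower. The largest difference was 0.54 in Hmox1, at 232 and 241 CPM in Dnmt1fl/fl and at 461 and 229 in Dnmt1KO macrophages. Dnmt1KO replicate 1 was highest in 7 of the 10, against 38.8% of all genes tested. Only Gclc, of glutathione synthesis, was without overlap, at -0.32. Of 17 tested genes of mitochondrial mass and biogenesis, 6 reached 0.2 higher and 1 lower, and 14 had their highest value in Dnmt1KO replicate 1, against 38.8% of all genes tested.

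Tet2 and Tet3, TET enzymes that use alpha-ketoglutarate, were low in the samples where Acod1 was high. Tet2 was at 48.4 and 36.0 CPM in Dnmt1fl/fl and at 18.0 and 56.6 in Dnmt1KO macrophages. Tet3 was at 183 and 105 CPM in Dnmt1fl/fl and at 87.9 and 184 in Dnmt1KO macrophages. They were lower in Dnmt1fl/fl replicate 2 and Dnmt1KO replicate 1 than in the other samples, and their log2 fold changes between genotypes were -0.18 and -0.08. Tet1 had 1 to 9 counts per sample and was not tested.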

How the data were processed

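RNA was sequenced as paired-end reads from 4 samples of peritoneal macrophages. According to the methods and the submitters' processing notes, the authors aligned reads to the mouse genome (mm10) with HISAT2 2.0.5 and counted them per gene with featureCounts 1.5.0-p3, and the annotation is not given in the sources used here. The deposited values are estimated counts, not normalized, of which 72.6% to 76.4% per sample were whole, and all were rounded. Every gene of the table is above 0 in all 4 samples. The shorter deposited table holds rows of the same table and was not used.

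Counts were filtered with filterByExpr, scaled with TMM and tested with edgeR 4.0.16 (R 4.3.3; quasi-likelihood F-test, two-sided, Benjamini-Hochberg adjustment over 12542 genes), without a block. Standard errors were taken from the F statistic. The common dispersion was 0.0837. For 2 samples against 2, the smallest p of an exact permutation test (two-sided) is 0.333.

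Results were recomputed with DESeq2 1.42.0, with limma 3.58.1 (voom), with total-count scaling, with other filters on low counts, with a block by replicate number and without each sample in turn, and crossed pairing and a length correction (loess, span 0.5) were added after seeing the data. Transcript lengths were from GENCODE M21, matched by symbol for 98.3% of genes. Named genes are the members, their partner subunits, the TET genes, up to 3 genes per list with the largest fold change among those whose genotypes did not overlap, and the 3 nearest profiles of each member. Other genes named, such as the markers, were picked with their values known. The members and lists were chosen with earlier results of these data known.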

Additional observations from a re-analysis of the deposited data

How the results depend on the processing

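In edgeR, genes past the adjusted threshold numbered 0, and 1 with DESeq2, 3 with the crossed pairing, and 0 to 674 when a sample was left out, highest without Dnmt1KO replicate 2. Each of those fits leaves 1 sample in a genotype, which is assumed to vary like the other genotype. Genes with an unadjusted p under 0.05 numbered 35, 60 without a filter on low counts, 297 with the crossed pairing, and 41 to 3418 with a sample left out. Genes reaching the fold limit numbered 5206, and 5119 to 9028 with a sample left out. Members reaching it numbered 3, 2 with total counts, 4 with DESeq2, limma-voom, no filter on low counts or either pairing, and 3 to 7; members without overlap 2, 4 with total counts, and 2 to 9, where a lone sample overlaps less by construction. The members' median was 0.19, 0.0992 with total counts, and -0.0661 to 0.43. Genes of the pathway lists reaching the limit numbered 49, 38 with total counts, and 41 to 81. Dnmt1 was at -0.95, and at -1.12 to -0.75 with a sample left out. With all 4 samples its unadjusted p in edgeR was 0.00839, and it did not pass the adjusted threshold. The direction changed for Suclg1 with total counts (-0.0189) and, on leaving out a sample, for Suclg1 (-0.0454 to 0.15), Cs (-0.0239 to 0.48), Idh2 (-0.0661 to 0.50), Idh3a (-0.30 to 0.0637), Ogdh (-0.10 to 0.43), Mdh2 (-0.29 to 0.78) and Acod1 (-2.22 to 1.53). The lowest adjusted p of a member in any edgeR, DESeq2 or limma-voom fit was 0.0626, for Mdh2 without Dnmt1KO replicate 2. The cause was not tested. Deviations of same-numbered samples correlated at -0.35 across genes. With 2 samples per genotype, this value cannot show what the replicate numbers stand for. With the replicate block 0 genes passed the adjusted threshold and 5349 reached the fold limit, Mdh2 was at 0.26 and Acod1 at -0.30. Crossed pairing, added after seeing this, gave 5359 genes at the fold limit.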
